A study of Mus musculus with 9 samples.

Results

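The effects of the 2 short hairpins against Ebf1 were set against each other: 3 arrays of cells with shEbf1 Hairpin 2 against 3 arrays of cells with shEbf1 Hairpin 1, 6 of the 9 arrays of the series. The members were chosen by the array titles alone, and 12735 of the 18193 genes on the array passed the signal filter and were tested. The cells were 3T3-L1, mouse preadipocytes kept as a line and turned into adipocytes in the dish, and lentivirus was added once they were mature. All groups went through 3 to 4 rounds of infection and at least 8 days in 5 µg/ml puromycin, which kills cells that took up no virus. The other 3 arrays, from cells with a scrambled hairpin, carried the same treatments and gave the level against which each hairpin was placed. Array titles carry a repeat number but do not state whether repeats were separate cultures, so the spread behind each p-value may be purely technical. RNA was amplified from small amounts before hybridization, and each gene was read from 1 probe set, the brightest on average across the 9 arrays.

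A short hairpin RNA is cut by Dicer to a small RNA that guides the RNA-induced silencing complex to a matching mRNA. Hairpins of different sequence against 1 gene share the intended target, while their knockdown and their other targets can differ. Ebf1, early B cell factor 1, is a transcription factor of B cells and of the fat lineage. Interferon-induced genes, which recur below, encode antiviral proteins, and many of them carry the interferon-stimulated response element in their promoters.

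Ebf1 mRNA was lower with hairpin 2 than with hairpin 1, and both lay below scrambled. The signals, all on the log2 scale of the deposited values, were 10.12, 10.15 and 10.31 on the scrambled arrays. They were 9.32, 9.54 and 9.45 with hairpin 1 and 8.90, 8.72 and 9.20 with hairpin 2. The arrays of the 3 groups did not overlap. The difference hairpin 2 minus hairpin 1 was -0.50 log2 units (SE 0.113; limma adjusted p = 0.00351), a 1.41-fold lower level. Other Ebf1 probe sets differed by -0.61, -0.52 and -0.27, and the last did not pass (adjusted p = 0.278 over all probe sets). Ebf2, a paralog, read 6.95 ± 0.02 with scrambled, and 7.29 ± 0.14 and 7.03 ± 0.15 with hairpins 1 and 2 (SD, n = 3 each). Its difference between hairpins of -0.26 did not pass (adjusted p = 0.0633). Ebf3 differed by 0.01 log2 units (95% interval -0.20 to 0.21) and Ebf4 lay below the signal filter.

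Between the hairpins 3702 of 12735 genes differed at an adjusted p below 0.05 (29.1%), 1483 of them higher with hairpin 2 (11.6%) and 2219 lower (17.4%). These shares are the background for the gene lists below. Most differences were small, with a median size of 0.39 log2 units among the genes called. A difference of at least 1 log2 unit, a doubling, was called for 183 genes (1.44%), 79 higher (0.62%) and 104 lower (0.817%). Of the 104 genes lower by that much, 71 had the scrambled mean above both hairpins, 25 had it between them and 8 below both. Of the 79 higher genes, 34 had scrambled below both hairpins, 39 between them and 6 above both. Over all genes tested the scrambled mean lay above both hairpins in 25.8%, between them in 30.5% and below both in 43.6%. Among all genes called between the hairpins these shares were 18.9%, 49% and 32.1%. The plot of difference against signal shows the long lower tail.

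**Figure D1:**
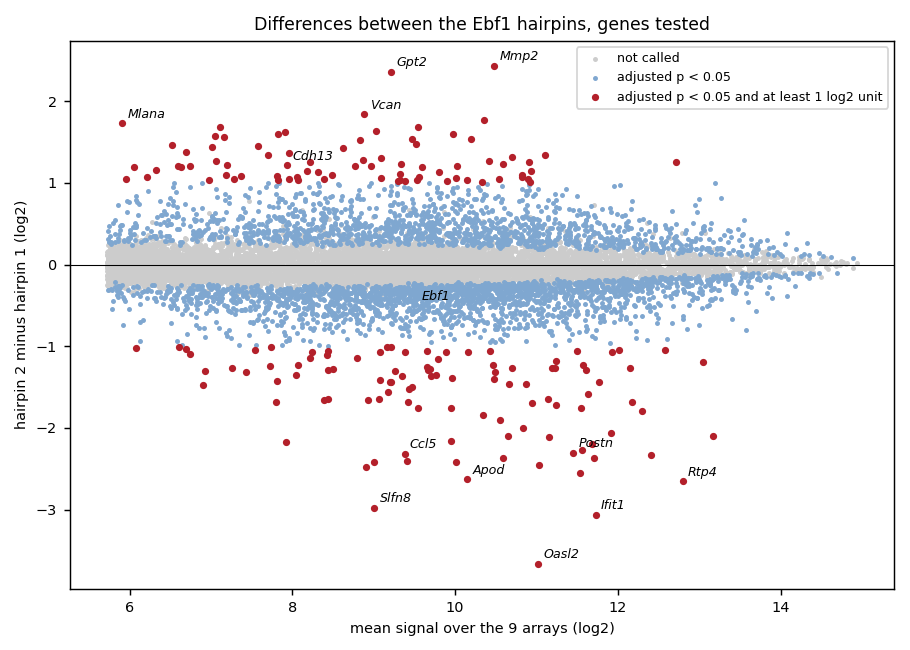
Difference hairpin 2 minus hairpin 1 (log2) against the mean signal over the 9 arrays (log2), 1 point per gene tested, grey where the gene was not called, blue where called and red where called with a difference of at least 1. The differences run from -3.66 for Oasl2 to 2.44 for Mmp2.

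The hairpin 1 arrays were the more spread, with a median within-group SD of 0.118 per gene against 0.0929 for hairpin 2 and 0.066 for scrambled. The first repeat of hairpin 1 stood apart, with a score of -12.18 on the first principal component of the 6 hairpin arrays against -21.9 and -20.69 for its other repeats and 17.68 to 18.65 for hairpin 2. Without it 4664 genes were called. Correlations over genes were 0.994 to 0.9983 within groups and 0.9847 to 0.9892 between arrays of different hairpins.

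Interferon-induced genes stood out among the largest falls. Of the 38 tested members of the interferon list, 35 were lower with hairpin 2 and 0 were higher, with a median of -1.77 log2 units against -0.04 over all genes tested. For 35 members every scrambled array lay above every hairpin 1 array, and every hairpin 1 array above every hairpin 2 array. Over all genes tested, the arrays of the hairpins did not overlap in 35.6%, counting either direction, against 36 of the 38 members. Against scrambled 37 members were lower with hairpin 1, where 9.23% of all genes tested were. Of the 104 genes lower by at least 1 log2 unit, 31 belonged to this list. The remaining members did not pass: Oas3 and Ifit2 differed by -0.28 each and Oasl1 by 0.01, with Oas3 and Oasl1 already at 5.74 and 5.79 with hairpin 1, near the signal filter of 5.72.

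Promoters from RefSeq (GRCm38.p6), 250 bases before to 50 after the start of each gene, are printed for Ifit1, Rsad2 and Oasl2 of the list and for Irgm2, an interferon-induced gene outside it, because the interferon-stimulated response element lies in promoters. Capitals mark matches to GAAA, 2 bases of any kind and GAAA again, or the reverse complement. The sequences of Ifit1 (chr19:34640639-34640938, + strand), Rsad2 (chr12:26456403-26456702, - strand) and Irgm2 (chr11:58214727-58215026, + strand) hold matches. That of Oasl2 (chr5:114896684-114896983, + strand), the gene with the largest fall, holds none.
Ifit1: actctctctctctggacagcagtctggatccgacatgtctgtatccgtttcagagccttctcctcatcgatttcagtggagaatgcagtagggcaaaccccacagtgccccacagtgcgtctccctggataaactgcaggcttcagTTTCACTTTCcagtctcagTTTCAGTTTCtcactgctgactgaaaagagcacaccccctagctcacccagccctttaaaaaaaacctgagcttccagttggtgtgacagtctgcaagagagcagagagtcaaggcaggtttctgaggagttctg
Rsad2: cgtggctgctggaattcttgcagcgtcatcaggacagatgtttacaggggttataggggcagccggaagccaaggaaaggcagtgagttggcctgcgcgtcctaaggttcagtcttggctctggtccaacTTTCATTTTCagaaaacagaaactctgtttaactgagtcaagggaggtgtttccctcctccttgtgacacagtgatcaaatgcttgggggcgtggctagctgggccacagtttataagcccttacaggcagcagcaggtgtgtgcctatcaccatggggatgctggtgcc
Irgm2: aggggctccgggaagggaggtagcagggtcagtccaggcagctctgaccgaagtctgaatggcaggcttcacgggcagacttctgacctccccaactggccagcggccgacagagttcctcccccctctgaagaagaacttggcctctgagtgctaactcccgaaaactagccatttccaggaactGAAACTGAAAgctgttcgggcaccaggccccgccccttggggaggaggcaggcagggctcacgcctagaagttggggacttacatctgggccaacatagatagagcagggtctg
Oasl2: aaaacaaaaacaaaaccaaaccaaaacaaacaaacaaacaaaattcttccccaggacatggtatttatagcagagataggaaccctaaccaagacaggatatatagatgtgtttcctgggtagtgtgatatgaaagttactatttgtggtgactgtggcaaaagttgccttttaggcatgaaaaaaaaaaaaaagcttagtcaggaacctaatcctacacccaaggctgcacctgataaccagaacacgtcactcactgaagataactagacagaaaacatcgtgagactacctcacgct

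These letters occur in 3.99% of the 27025 promoters of that table and in 3.52% of the 10231 promoters of genes tested. They occur in 24 of 77 promoters of genes lower by at least 1 log2 unit (31.2%) and in 2 of 59 of those higher by as much (3.39%). Within the interferon list they occur in 15 of 28 promoters, whose genes had a median difference of -1.90. The 13 list genes without a match had a median of -1.25. The core that Ebf proteins are known to bind, TCCC and GGGA with 2 bases of any kind between them, occurs in 1.06% of all promoters, in 0 of the 77 and in 3 of the 59. All searches covered both strands of 300 bases, and a match is a description of the letters and not a bound site.

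Oasl2, an oligoadenylate synthetase-like antiviral protein, read 13.10, 13.25 and 13.22 with scrambled, 11.59, 11.68 and 12.04 with hairpin 1 and 7.88, 8.23 and 8.22 with hairpin 2. The groups lay apart, and the level with hairpin 2 was 12.6-fold lower than with hairpin 1 (log2 difference -3.66, SE 0.114, limma adjusted p = 6.75e-12). Ifit1, which binds foreign RNA, read 11.96, 12.23 and 12.45 with hairpin 1 and 9.11, 9.24 and 9.11 with hairpin 2. It was 8.34-fold lower with hairpin 2, and scrambled stood above both at 13.81 ± 0.06 (SD, n = 3).

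Rtp4 read 14.05, 14.01 and 13.99 with scrambled, 13.41, 13.52 and 13.61 with hairpin 1 and 10.86 ± 0.13 with hairpin 2 (SD, n = 3). Its mean with hairpin 1 was thus at most 0.51 log2 units below the scrambled mean, while the hairpin 2 mean stood a further 2.65 below (SE 0.0644, adjusted p = 4.52e-13). Eif2ak2, the RNA-activated kinase PKR, read 11.60 with scrambled, 11.53 with hairpin 1 and 10.55 with hairpin 2. Mx1, an antiviral GTPase gene, had its larger step between scrambled and hairpin 1, at 10.29, 6.66 and 5.35. In 12 of the 38 list members the fall from scrambled to hairpin 1 exceeded the fall from hairpin 1 to hairpin 2. Low signal with hairpin 2 can shorten the second fall, and its part in this count was not tested.

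Usp18, the protease that removes ISG15 from proteins, read 11.52, 11.65 and 12.06 with hairpin 1 and 9.24, 9.25 and 9.07 with hairpin 2, a 5.88-fold difference. Rsad2, the antiviral enzyme viperin, differed by -2.37, the mitochondrial nucleotide kinase gene Cmpk2 by -2.48 and the GTPase gene Mx2 by -2.40. Oas2, whose product makes the activator of RNase L, differed by -2.36. The immunity-related GTPase gene Iigp1 differed by -2.33. Irgm2, of the same family, and the Schlafen gene Slfn8, both outside the list, differed by -2.45 and -2.97. The regulators of the response were lower too: Irf7 by -2.10, Irf9 by -1.25 and Stat2 by -1.14. All of these passed the test, and none of their hairpin 1 arrays overlapped a hairpin 2 array. Such separation, in either direction, held for 35.6% of all genes tested. The plot of the interferon list shows the 3 levels for each member.

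**Figure D2:**
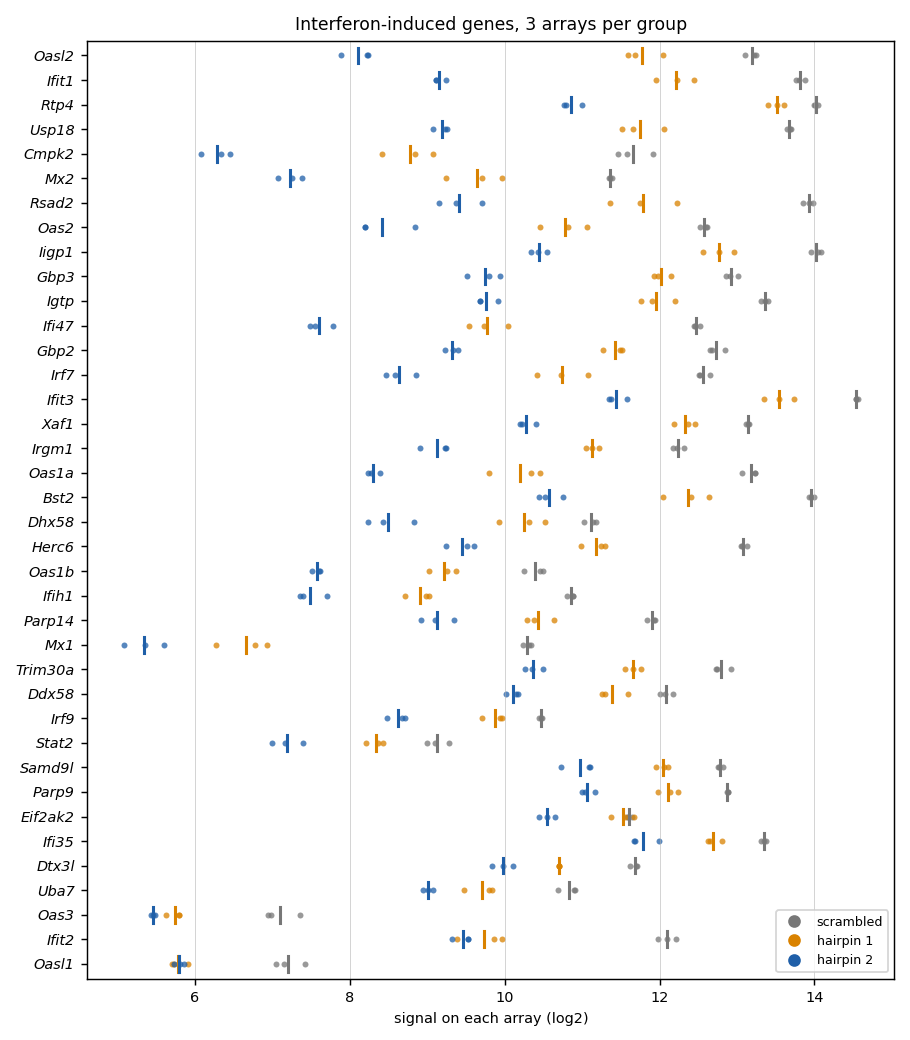
Signal on each array (log2) for the 38 tested interferon-induced genes, 3 points per group with a bar at the group mean, in the order of the difference between hairpins. Hairpin 2 lies lowest for nearly every gene, with Ifit2, Oas3 and Oasl1 at the bottom not called.

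Antigen processing followed with smaller differences: 10 of 16 tested members of the MHC class I list were lower with hairpin 2 and 2 were higher, with a median of -0.45. The immunoproteasome subunit gene Psmb8 read 8.98, 9.22 and 9.33 with hairpin 1 and 7.61, 7.77 and 7.64 with hairpin 2, a difference of -1.50 (adjusted p = 2.06e-08), and -0.83 with all its probe sets averaged. Psmb9 and Psmb10, the other immunoproteasome subunits, differed by -0.71 and -0.66, and the peptide transporter genes Tap1 and Tap2 by -0.68 and -0.60. Erap1, the peptide trimmer, differed by -0.71. The heavy chain gene H2-K1 differed by only -0.10, H2-D1 by 0.02 and the light chain gene B2m by 0.04, the last pair not called, and all of them read above 14 in every group. The chaperone gene Canx was higher by 0.51 and lay on opposite sides of scrambled, at 12.69 with hairpin 1 and 13.20 with hairpin 2 against 12.90.

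Of the 12 tested nucleic acid sensors and adaptors, 6 were lower and 1 was higher. Zbp1, a sensor of Z-form nucleic acid, read 8.76, 9.13 and 9.41 with hairpin 1 and 6.74, 7.10 and 6.22 with hairpin 2 (-2.41). Ifi204 differed by -1.66, Trim25 by -1.26, the RNA editing enzyme gene Adar by -0.82, the double-stranded RNA receptor gene Tlr3 by -0.73 and the adaptor gene Myd88 by -0.36. The kinase gene Ikbke was higher by 0.53, while Mavs, Tbk1, Irf3 and Ticam1 did not pass. Receptors and kinases upstream of the response moved less: 7 of 25 tested JAK-STAT genes were lower and 0 higher, 28% called against 29.1% of all genes tested. Among them the interferon receptor subunit genes Ifnar2 and Ifngr1 differed by -0.32 and -0.38, and Il6ra by -0.74. Ifnar2 was not called with its probe sets averaged (-0.15). Of 15 tested NF-kappa B subunits and targets 1 was lower, the subunit gene Rela (11.28 with hairpin 1, 10.54 with hairpin 2, -0.74), and Tnfaip2 and Tnfaip3 were higher. That is 20% called, below the 29.1% of all genes tested.

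Chemokine genes split. Of 24 tested chemokines and cytokines, 7 were lower with hairpin 2 and 7 higher. Ccl5, a T cell attractant, read 13.89, 13.78 and 13.86 with scrambled, 7.90, 8.36 and 8.64 with hairpin 1 and 5.99 ± 0.33 with hairpin 2 (SD, n = 3). Most of its fall lay between scrambled and hairpin 1, and hairpin 2 stood a further 2.31 lower (SE 0.167, adjusted p = 6.67e-08). The interferon-induced chemokine genes Cxcl10 and Cxcl9 differed by -1.68 and -1.27.

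Ccl7, a monocyte attractant, had the opposite pattern. It read 9.99, 9.61 and 9.82 with scrambled, 7.56, 7.93 and 7.95 with hairpin 1 and 9.30, 9.54 and 9.50 with hairpin 2. Hairpin 1 lay farthest from scrambled, and hairpin 2 also lay below it, by -0.36 (limma adjusted p = 0.0286). Cxcl5, a neutrophil attractant, read 6.93, 6.44 and 6.75 with hairpin 1 and 8.21, 8.09 and 8.56 with hairpin 2 and was 2.98-fold higher. Ccl11, the eosinophil attractant eotaxin, was higher by 1.34 and Cxcl12 by 0.80 (0.40 with its probe sets averaged). Ackr3, a scavenging receptor for Cxcl12, was at 8.27 ± 0.21 with scrambled, and 6.92 ± 0.21 and 8.55 ± 0.30 with hairpins 1 and 2 (SD, n = 3 each). Ccl2 was lower by 0.54 log2 units with hairpin 2 and Cxcl1, lower by 0.58, lay above scrambled with hairpin 1 and below it with hairpin 2.

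The extracellular matrix was sorted differently by the hairpins. Of 38 tested matrix genes, 12 were higher with hairpin 2 and 10 lower, with a median of 0.03. Among the 16 collagen genes of the list 8 were higher and 2 lower. Differences in the list ran from -2.30 for Postn to 1.84 for Vcan. Postn, the matricellular protein periostin, read 11.01, 10.60 and 10.71 with scrambled, 12.84, 12.92 and 13.06 with hairpin 1 and 10.58, 10.60 and 10.74 with hairpin 2. Hairpin 2 overlapped scrambled, and hairpin 1 stood 4.93-fold above hairpin 2 (log2 difference -2.30, SE 0.0946, adjusted p = 9.59e-11). Lox, the collagen cross-linking enzyme, showed the same placing at 10.18 ± 0.30, 11.96 ± 0.03 and 10.49 ± 0.18 (SD, n = 3 each). Fmod, Col11a1 and Tnc were also lower with hairpin 2, by -1.43, -1.03 and -0.77.

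Vcan, the large proteoglycan versican, moved the other way. It read 8.00, 7.91 and 7.88 with scrambled, 8.40, 8.46 and 8.47 with hairpin 1 and 10.23, 10.14 and 10.48 with hairpin 2, a 3.57-fold difference between hairpins. With all its probe sets averaged the difference was 0.45, and its other tested probe sets differed by 1.03 and 0.94. The fibril and network collagen genes Col1a1, Col3a1, Col4a1, Col5a2 and Col6a3 were higher by 0.28, 0.14, 0.27, 0.25 and 0.31. Fn1, fibronectin, was higher by 0.34, and Lum by 0.42. Mgp, a matrix inhibitor of calcification, outside the list, was higher by 1.54, with hairpin 1 arrays at 8.64, 9.27 and 9.47 and hairpin 2 arrays at 10.69, 10.47 and 10.85.

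Proteases leaned to hairpin 2, with 10 of 22 tested proteases and inhibitors higher and 3 lower. Mmp2, gelatinase A, had the highest difference of all genes tested. It read 10.62, 10.26 and 10.45 with scrambled, 9.10, 9.42 and 9.32 with hairpin 1 and 11.69, 11.76 and 11.68 with hairpin 2, 5.41-fold apart (log2 difference 2.44, SE 0.0997, adjusted p = 9.59e-11). Its other probe set differed by 2.71. Ctsk, the collagen-cutting cathepsin K, read 8.91, 9.10 and 9.04 with hairpin 1, close to scrambled at 8.91 ± 0.11 (SD, n = 3), and 10.64, 10.74 and 10.72 with hairpin 2.

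Plat, the tissue plasminogen activator, was higher by 1.42 (0.66 with its probe sets averaged), with the same value of 8.60 on all 3 hairpin 1 arrays. Values identical to 5 significant digits on all arrays of a group occurred for 32 genes tested with hairpin 1, 26 with hairpin 2 and 57 with scrambled. Serpinb9b, a serine protease inhibitor, was higher by 1.68. Mmp14, which activates the Mmp2 proenzyme, and the inhibitor gene Timp1 were higher by 0.68 and 0.74. Mmp23 and Timp2 were lower, by -0.53 and -0.33. The plot of matrix and protease genes sets the 3 groups side by side.

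**Figure D3:**
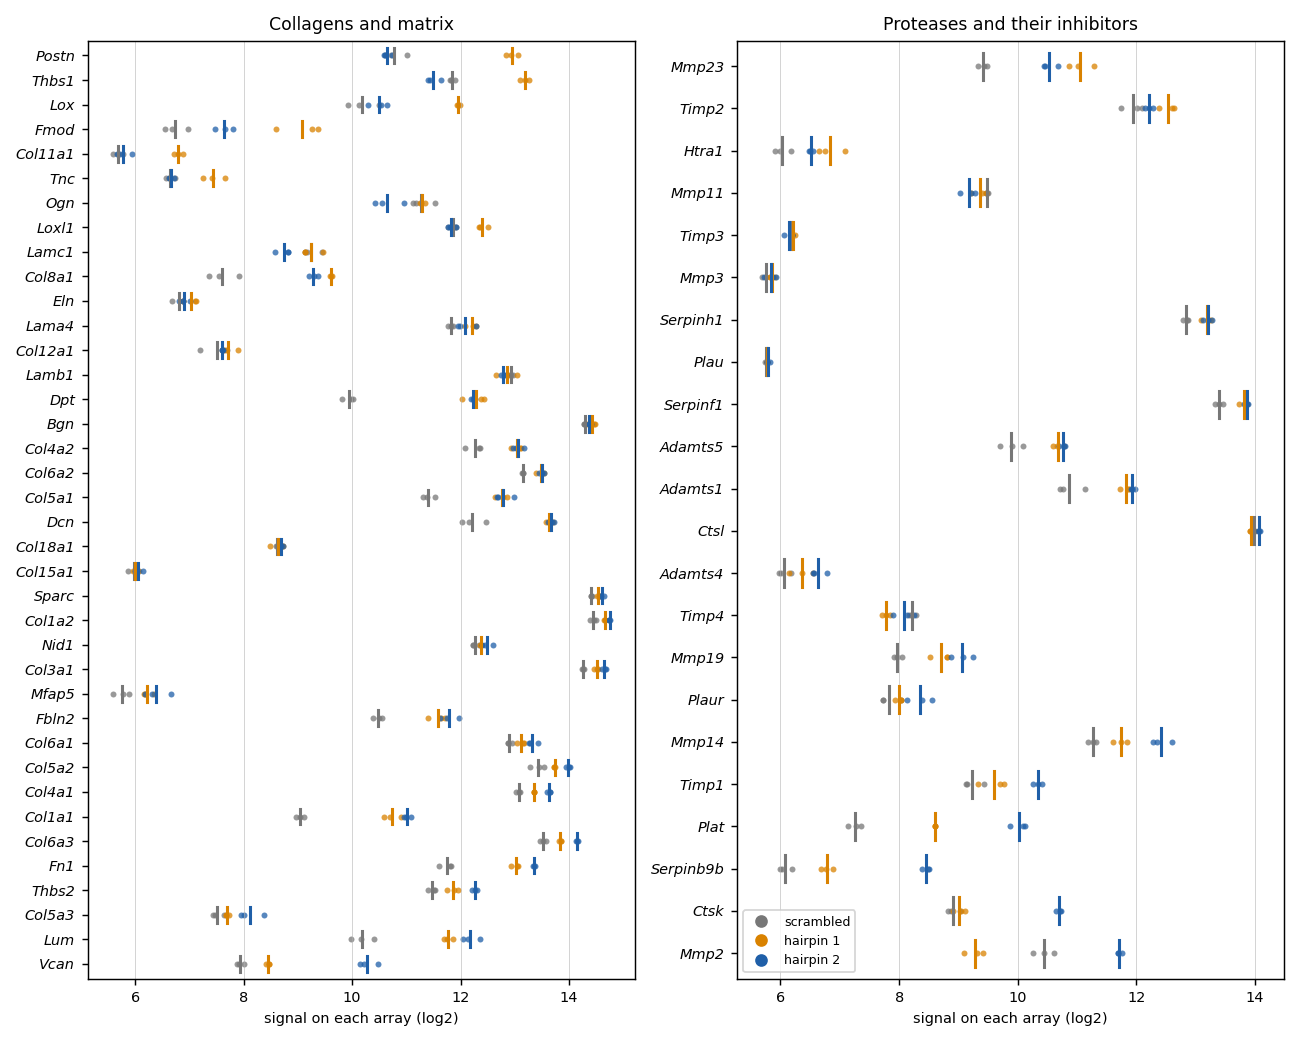
Signal on each array (log2) for the tested matrix genes (left) and proteases and inhibitors (right), 3 points per group with a bar at the group mean, ordered by the difference between hairpins. Postn, Lox and Tnc stand high with hairpin 1 alone, while Vcan, Ctsk and Serpinb9b stand high with hairpin 2.

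Several signalling and adhesion groups also divided. Of 27 tested TGF-beta and BMP genes, 11 were higher and 9 lower. The ligand genes Tgfb1, Tgfb2 and Tgfb3 were higher by 0.41, 0.63 and 0.55, and the latent binding protein gene Ltbp1 by 0.81. The type I receptor genes Tgfbr1 and Acvr1 were higher by 0.49 and 0.79, whereas Tgfbr2, Acvr2a and the mediators Smad2 and Smad4 were lower by -0.32, -0.44, -0.23 and -0.24. Tgfbi, a TGF-beta-induced matrix protein, was higher by 0.76. Fstl1, a secreted follistatin-like protein, read 12.52, 12.73 and 12.61 with hairpin 1 and 11.03 ± 0.04 (SD, n = 3) with hairpin 2, a difference of -1.59, with scrambled at 11.24 ± 0.17 (SD, n = 3).

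Among 14 tested contractile and SRF target genes, 6 were lower and 1 was higher. The smooth muscle actin gene Acta2 read 11.79, 11.86 and 11.99 with hairpin 1 and 11.27, 11.16 and 11.11 with hairpin 2 (-0.70, and -0.21 with its probe sets averaged). Tpm1, Myl9 and Tagln were lower by -0.77, -0.78 and -0.58, and the filamin gene Flna was higher by 0.38. Adhesion genes went the other way, 8 of 24 tested higher and 2 lower. Cdh13, a cadherin that binds adiponectin, rose in steps, at 6.77, 6.74 and 6.74 with scrambled, 7.82, 7.96 and 7.97 with hairpin 1 and 9.08, 9.29 and 9.04 with hairpin 2. The hyaluronan receptor gene Cd44 was higher by 0.75 and Itgb3 by 1.00, while Itgav was lower by -0.96 (-0.44 with its probe sets averaged).

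Of 22 tested Wnt genes 4 were higher and 2 lower, 27.3% called against 29.1% of all genes tested. Among them the receptor gene Fzd7 was higher by 0.78 and Fzd5 and Fzd2 were lower by -0.68 and -0.55. Growth factor genes were more often lower, 11 of 26 tested against 2 higher. Ptn, Hbegf, Fgf10 and Igf2 were lower by -0.81, -0.67, -0.59 and -0.57. Pdgfc and the receptor gene Fgfr2 were higher by 0.63 and 0.58. Angptl4, a secreted inhibitor of lipoprotein lipase, read 13.12, 13.38 and 13.29 with hairpin 1 and 12.45, 12.48 and 12.49 with hairpin 2, on either side of scrambled at 12.82 ± 0.02 (SD, n = 3).

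In 197 genes the hairpins lay on opposite sides of the scrambled level, that is, both comparisons with scrambled were called with opposite signs and the hairpins differed from each other (1.55% of genes tested, 5.32% of those called between the hairpins). The comparisons share the scrambled arrays. Hairpin 1 lay above and hairpin 2 below in 122 of them, and the reverse held in 75. In 189 no array of 1 group overlapped another group. The genes were selected by calls on these same arrays, so that separation is largely fixed by the selection. Their median difference between hairpins was 0.70 in size, and 33 reached 1 log2 unit. At least 0.5 log2 units on each side was reached by 10 genes, a threshold added after the data were seen, and by 6 with probe sets averaged. The count moved with single arrays, from 102 without the first or second scrambled repeat and 110 without the third to 364 without the first repeat of hairpin 1.

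Of these genes, Gpt2 lay farthest below scrambled with hairpin 1. Gpt2, the mitochondrial alanine aminotransferase, read 9.47, 9.49 and 9.35 with scrambled, 7.90, 7.96 and 7.89 with hairpin 1 and 10.29, 10.33 and 10.22 with hairpin 2. It differed by -1.52 from scrambled with hairpin 1 and by 0.84 with hairpin 2. Its other probe sets differed between hairpins by 1.42, 1.16 and 2.06. Mmp2, described above, differed from scrambled by -1.17 and 1.27. Pbx3, a homeobox cofactor, read 7.61 ± 0.02, 7.13 ± 0.10 and 8.73 ± 0.22 with scrambled, hairpin 1 and hairpin 2 (SD, n = 3 each).

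Ech1, a dienoyl-CoA isomerase of fatty acid oxidation, read 12.70, 12.63 and 12.78 with scrambled, 11.91, 12.21 and 12.14 with hairpin 1 and 13.30, 13.38 and 13.37 with hairpin 2. The ubiquitin ligase gene Znrf2 differed by -1.19 with hairpin 1 and 0.35 with hairpin 2. Epdr1, an ependymin-related secreted protein, differed by -0.39 and 0.82, and its opposite placing was lost with its probe sets averaged (-0.09 with hairpin 1, limma adjusted p = 0.432). Lrp11, Uap1l1, Purb and Tifa had the same order of groups, with differences between hairpins of 1.47, 1.26, 1.14 and 1.14. Purb and Uap1l1 differed by 0.74 and 0.81 with their probe sets averaged. The COPII coat gene Sec23a and the orphan nuclear receptor gene Nr2f1 differed between hairpins by 1.32 and 1.22. Their opposite placing was lost under 8 and 5 alternative settings, and with hairpin 1 they differed from scrambled by -0.30 and -0.33.

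With hairpin 1 above scrambled and hairpin 2 below, Thbs1, the adhesive glycoprotein thrombospondin 1, read 11.82, 11.81 and 11.89 with scrambled, 13.10, 13.19 and 13.26 with hairpin 1 and 11.41, 11.44 and 11.65 with hairpin 2. Its other probe set differed between hairpins by -2.06, and the fall below scrambled on it did not pass (-0.20, adjusted p = 0.287 over all probe sets). Fst, follistatin, an activin antagonist, read 8.80, 8.46 and 8.51, then 9.04, 9.18 and 9.32, then 7.61, 7.46 and 7.53 in the same order of groups. Dlk1, the preadipocyte factor Pref-1, read 9.47 on all 3 scrambled arrays, 9.98, 9.96 and 10.57 with hairpin 1 and 9.06, 8.23 and 8.64 with hairpin 2. Its difference between hairpins was -1.52 (SE 0.177, adjusted p = 9.56e-06) and -0.84 with its probe sets averaged.

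Nus1, a subunit of the enzyme that makes dolichol chains, differed from scrambled by 0.33 with hairpin 1 and by -1.37 with hairpin 2. Its opposite placing was lost with its probe sets averaged, when the difference between hairpins was -0.97. Alg2, a mannosyltransferase that builds glycans on dolichol, differed from scrambled by 0.38 and -0.99 (between hairpins -1.37, or -0.67 with probe sets averaged). Acox2, a peroxisomal acyl-CoA oxidase, differed by 1.24 and -0.45. Stbd1, a glycogen-binding protein, differed by 0.89 and -0.34, and the plakophilin gene Pkp2 by 0.50 and -0.85. Kdelr3, an endoplasmic reticulum retrieval receptor, differed by 1.13 and -0.30, and its opposite placing was lost under 5 alternative settings, each without 1 array. Eif5a2, Smim13 and Fam91a1 differed between hairpins by -1.30, -1.28 and -1.28. The opposite placing of Eif5a2 was lost without the third repeat of hairpin 1 (0.32 with hairpin 1, limma adjusted p = 0.0736). The plot of opposite-side genes shows these placings array by array.

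**Figure D4:**
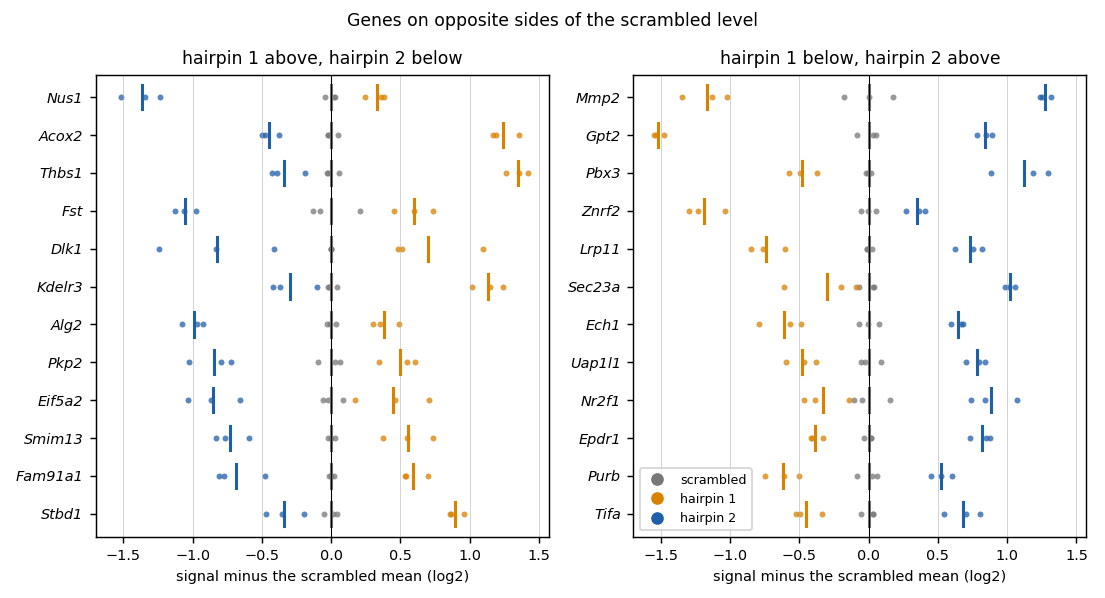
Signal on each array minus the scrambled mean of the gene (log2), for the 12 genes of each direction with the largest difference between hairpins, 3 points per group with a bar at the group mean. Hairpin 1 lies right of scrambled and hairpin 2 left in the left panel, and the reverse in the right panel.

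Among called genes of the stress lists, those of the integrated stress response were mostly lower with hairpin 2 and those of oxidant defence mostly higher. Unfolded protein response and hypoxia genes were called in both directions. Of 27 tested genes of the integrated stress response, the programme run by the factor ATF4 when protein synthesis is held back, 15 were lower with hairpin 2 and 1 was higher, with a median of -0.23. Promoters of this group are printed because the element bound by ATF4 with C/EBP proteins lies in several of them, with capitals on TTGCATCA or its reverse complement. These letters occur in 1.03% of all promoters of the table and in 0.694% of those of genes tested. They occur in 0 of 77 promoters of genes lower by at least 1 log2 unit and in 0 of 59 of those higher by as much. Within the list they occur in 6 of 23 promoters (26.1%), including that of Fgf21, which was not called. The promoters printed all hold a match: Atf3 (chr1:191183284-191183583, - strand), Nupr1 (chr7:126625421-126625720, - strand) and Slc7a11 (chr3:50443564-50443863, - strand).
Atf3: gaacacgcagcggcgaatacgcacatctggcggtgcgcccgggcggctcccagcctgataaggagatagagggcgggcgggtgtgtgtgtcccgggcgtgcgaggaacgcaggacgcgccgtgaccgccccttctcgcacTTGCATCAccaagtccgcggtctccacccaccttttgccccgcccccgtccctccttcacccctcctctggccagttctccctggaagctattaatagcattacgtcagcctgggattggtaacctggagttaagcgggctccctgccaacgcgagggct
Nupr1: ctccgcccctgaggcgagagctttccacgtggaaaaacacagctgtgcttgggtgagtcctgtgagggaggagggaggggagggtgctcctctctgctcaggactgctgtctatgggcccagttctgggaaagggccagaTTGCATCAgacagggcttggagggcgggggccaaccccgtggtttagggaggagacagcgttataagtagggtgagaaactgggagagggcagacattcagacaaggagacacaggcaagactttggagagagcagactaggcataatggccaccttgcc
Slc7a11: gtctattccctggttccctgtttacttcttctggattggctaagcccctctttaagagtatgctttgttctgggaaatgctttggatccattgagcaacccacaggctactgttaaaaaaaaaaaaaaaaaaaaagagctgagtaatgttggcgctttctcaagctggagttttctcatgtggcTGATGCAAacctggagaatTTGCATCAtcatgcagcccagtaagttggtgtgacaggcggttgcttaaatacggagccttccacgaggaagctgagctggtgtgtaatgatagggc

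Trib3, a pseudokinase and target of ATF4, read 11.55, 11.59 and 11.64 with scrambled, 11.50, 11.76 and 11.79 with hairpin 1 and 10.51, 10.44 and 10.30 with hairpin 2. Hairpin 1 overlapped scrambled, and hairpin 2 was 2.41-fold lower than hairpin 1 (log2 difference -1.27, SE 0.0842, adjusted p = 2.61e-08). Atf3 read 7.84, 7.93 and 7.95 with hairpin 1 and 7.05, 6.88 and 6.85 with hairpin 2, with scrambled at 7.84 ± 0.05 (SD, n = 3). Atf5 was lower by -0.90, the amino acid transporter genes Slc7a5 and Slc7a11 by -0.77 and -0.48, asparagine synthetase, Asns, by -0.61, Nupr1 by -0.53 and Atf4 itself by -0.40. Ddit4, an inhibitor of mTORC1, was the member that was higher, by 0.66, while Ddit3 differed by 0.08 and did not pass.

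Of 20 tested genes of the unfolded protein response 7 were lower and 4 higher. Creld2 and Manf, secreted products of endoplasmic reticulum stress, were lower by -0.92 and -0.72, while the chaperone genes Hspa5 and Dnajb9 were higher by 0.21 and 0.28. Pdia6 was higher by 0.61 on the probe set used and lower by 0.44 log2 units on another, 1430983_at, and was not called with probe sets averaged (0.08). Oxidant defence genes were higher in 10 of 22 tested and lower in 1. Hmox1, heme oxygenase, read 10.58, 10.75 and 10.84 with hairpin 1 and 11.46, 11.41 and 11.49 with hairpin 2 (0.73). Gsta3, Nqo1, the catalase gene Cat and Srxn1 were higher by 0.86, 0.50, 0.49 and 0.44, and the extracellular superoxide dismutase gene Sod3 was lower by -0.44.

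Immediate early genes divided, 8 of 17 tested higher and 6 lower. Egr1 read 9.81, 9.57 and 9.78 with scrambled, 8.70, 8.91 and 8.92 with hairpin 1 and 9.80, 9.88 and 9.62 with hairpin 2, and Egr3 and Klf10 were higher by 0.81 and 0.69. The phosphatase gene Dusp1, the growth regulator gene Myc and the AP-1 subunit genes Jund, Junb and Jun were lower by -0.73, -0.48, -0.40, -0.39 and -0.28. Of 16 tested hypoxia genes 4 were lower and 2 higher. Adm, adrenomedullin, differed by -1.07 and the collagen hydroxylase gene P4ha1 by 0.92. Epas1, which encodes HIF-2 alpha, differed by 0.36 on the probe set used and by -0.74 on another, 1449888_at, so its direction is not settled. Of 13 tested heat shock genes 3 were higher and 0 lower, 23.1% called against 29.1% of all genes tested. Hspa8, Dnajb1 and Hspe1, higher by 0.25, 0.21 and 0.20, each lost the call under at least 3 alternative settings.

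Cell cycle genes were lower in 11 of 36 tested and higher in 5, with a median of -0.13. Ccna2, cyclin A2, read 6.77, 7.19 and 6.94 with scrambled, 8.32, 8.25 and 8.46 with hairpin 1 and 7.57, 7.21 and 7.12 with hairpin 2 (-1.04, and -0.66 with probe sets averaged). Racgap1, Rrm2 and the proliferation antigen gene Mki67 were lower by -0.86, -0.83 and -0.77, of which Racgap1 was at -0.32 with probe sets averaged. Cdk4, a G1 kinase, read 10.79, 11.12 and 11.06 with hairpin 1 and 11.80, 11.97 and 11.79 with hairpin 2 (0.86), and Ccnd1, Cdk2, Mcm2 and Rrm1 were higher by 0.69, 0.49, 0.39 and 0.37. Of 17 tested p53 targets 5 were lower and 2 higher. Cdkn1a, the kinase inhibitor p21, read 10.58, 10.89 and 10.73 with hairpin 1 and 9.81, 9.80 and 9.76 with hairpin 2 (-0.95).

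Of 16 tested adipocyte markers 4 were higher with hairpin 2 and 3 lower, with a median of 0.01. Adipoq, adiponectin, read 14.80 with hairpin 1 and 14.81 with hairpin 2, and Lpl and Cd36 differed by 0.00 and 0.05, none of them called. Pck1, the glycerol-forming carboxykinase, was higher by 0.47 (0.28 with probe sets averaged), Car3 by 0.36 and Plin4 by 0.30. The lipase gene Pnpla2 and the glycerol channel gene Aqp7 were lower by -0.40 and -0.45.

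Of 22 tested adipogenic transcription factors 5 were lower and 2 higher, 31.8% called against 29.1% of all genes tested. Pparg, the master regulator of fat cells, read 13.46, 13.47 and 13.56 with scrambled, 13.21, 13.28 and 13.24 with hairpin 1 and 12.88, 12.94 and 12.99 with hairpin 2 (between hairpins -0.31, SE 0.0459, adjusted p = 0.000105). Klf15, Foxo1, Stat5b and Tcf7l2 were lower by -0.50, -0.43, -0.42 and -0.28. Cebpd was higher by 0.65 (0.33 with probe sets averaged), from 9.39 ± 0.09 to 10.04 ± 0.07 (SD, n = 3 each). Cebpa and Cebpb each differed by 0.00 and were not called.

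Lipid synthesis was mixed. Of 23 tested lipogenic genes 5 were lower and 4 higher. Acly, which makes cytosolic acetyl-CoA, was higher by 0.66 (0.37 with probe sets averaged) and the elongase gene Elovl6 by 0.51, while Fasn, Acaca and Scd1 did not pass. The triglyceride synthesis genes Mogat1, Agpat3 and Gpam were lower by -0.71, -0.40 and -0.36. Of 22 tested cholesterol genes 5 were lower and 4 higher, with the sterol carrier gene Stard4 higher by 0.64 and on opposite sides of scrambled. Of 19 tested lipid droplet and uptake genes 6 were higher and 3 lower, and Cidea was lower by -0.56. Of 19 tested fatty acid oxidation genes 4 were higher and 2 lower, and the largest of these differences was 0.34 in size. The share called, 31.6%, was near the 29.1% of all genes tested. Ech1 and Acox2, described above, are not in that list.

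Respiratory chain and ATP synthase genes differed by small amounts in 1 direction, 18 of 42 tested lower and 0 higher, with a median of -0.10 against -0.04 over all genes tested. The share called was 42.9%. Calls rose with signal, to 39.9% in the brightest of 4 equal groups of genes, and the part of signal in this count was not tested. Cox7a1, a muscle and brown fat isoform of complex IV, read 10.39, 10.48 and 10.41 with hairpin 1 and 9.70, 9.56 and 9.71 with hairpin 2 (-0.77), and the complex III and II genes Uqcrfs1 and Sdha were lower by -0.31 and -0.25. Without the variance trend 9 members were called lower. Of 8 tested thermogenic genes 2 were lower, Cox7a1 and Cidea, and 0 were higher. Of 19 tested glycolysis genes 2 were higher, Pgk1 by 0.43 and Ldhb by 0.38, and 2 lower, Pfkm by -0.47 and Pfkp by -0.21. Of 24 tested insulin signalling genes 1 was higher, Igf1r by 0.59 (0.23 with probe sets averaged), and 3 were lower, Foxo1, Akt1 by -0.32 and Irs2 by -0.25. The shares called were 25% of thermogenic, 21.05% of glycolysis and 16.7% of insulin signalling genes, below the 29.1% of all genes tested. Pfkp, Irs2 and Akt1 lost the call under 13, 11 and 4 alternative settings.

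Of 15 tested small RNA pathway genes 6 were lower with hairpin 2 and 1 was higher. Dicer1, which cuts hairpins, read 9.16, 8.99 and 9.18 with scrambled, 9.63, 10.08 and 9.80 with hairpin 1 and 8.90, 9.22 and 9.08 with hairpin 2 (-0.77, and -0.45 with probe sets averaged). Another Dicer1 probe set differed by -0.13 and did not pass. Tarbp2, a partner of Dicer, differed by -0.35, Drosha by -0.32 and the exonuclease gene Xrn1 by -0.73, and Tnrc6b, the member that was higher, by 0.28. Of 24 tested lysosomal genes 7 were lower and 6 higher. Gla, alpha-galactosidase A, read 9.45, 9.59 and 9.69 with hairpin 1 and 11.10, 11.25 and 11.19 with hairpin 2 (1.60, and 0.97 with probe sets averaged), while the cathepsin gene Ctsb was lower by -0.32. Of 30 tested nuclear receptor and clock genes 4 were higher and 3 lower, 23.3% called against 29.1% of all genes tested. Bhlhe40 was higher by 0.58 and Thra lower by -0.41. Of 11 tested complement and acute phase genes 3 were lower, led by Cfb at -0.87, and Hp was higher by 0.61. The plot of list shares collects these counts.

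**Figure D5:**
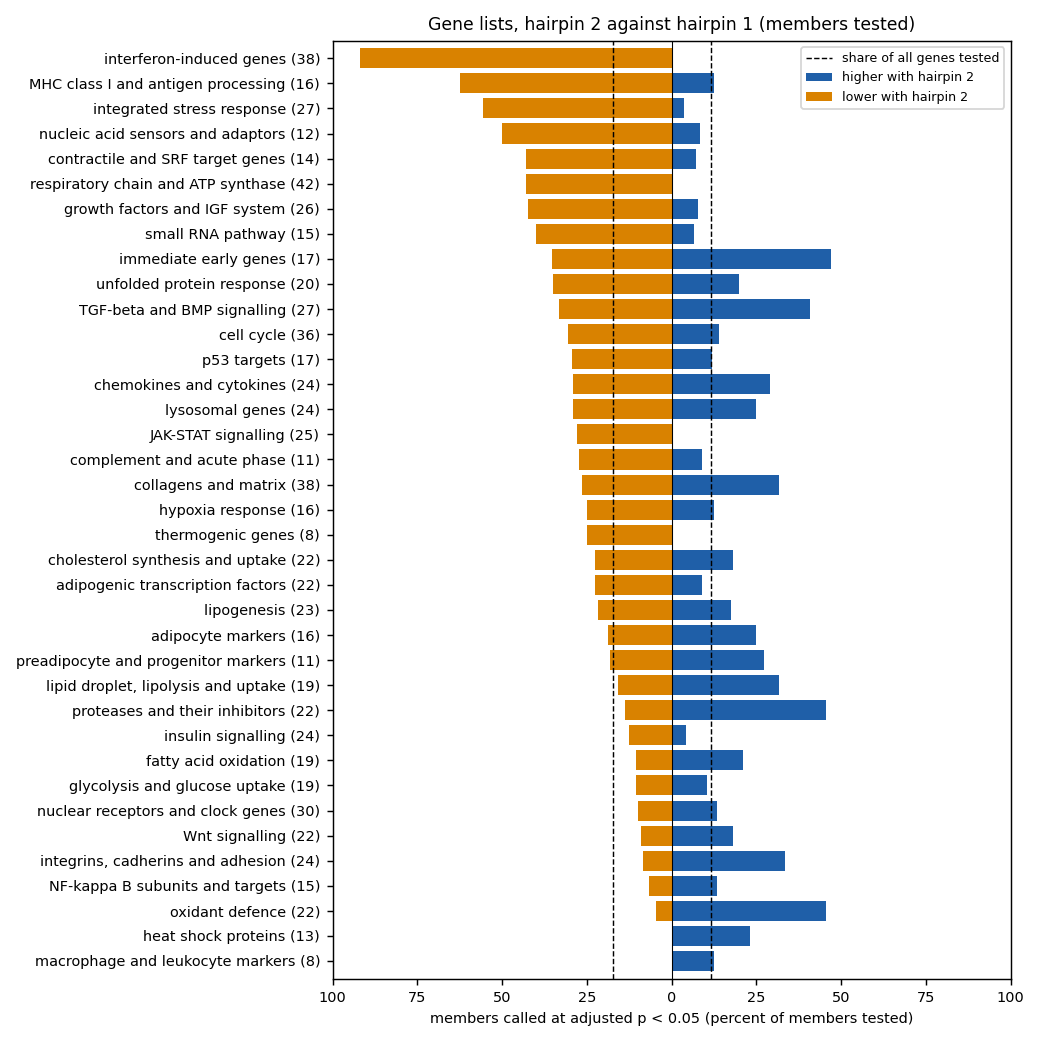
Share of tested members called higher (blue, right) or lower (orange, left) with hairpin 2 than with hairpin 1, in percent, for each gene list with at least 8 tested members (number in brackets). Dashed lines mark the shares over all genes tested, 11.6% higher and 17.4% lower.

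Some of the largest differences fell outside every list. Apod, apolipoprotein D, read 11.98 ± 0.16 with scrambled (SD, n = 3), 10.16, 10.64 and 10.82 with hairpin 1 and 7.90, 7.97 and 7.87 with hairpin 2 (between hairpins -2.62, and -1.37 with probe sets averaged). Tmem176a, a membrane protein gene of immune cells, read 9.74, 10.08 and 9.90 with hairpin 1 and 11.70, 11.63 and 11.68 with hairpin 2 (1.76). Mlana, a melanosome protein gene, read 5.22, 5.20 and 5.34 with hairpin 1 and 6.95, 7.12 and 6.87 with hairpin 2, with scrambled at 5.49 ± 0.04 (SD, n = 3), so that hairpin 2 alone lay above the filter level of 5.72. Sema3g, a secreted guidance cue, was higher by 1.57. Among 3764 probe sets without a gene name 441 were called (11.7%, against 22.5% of all probe sets), and 1423555_a_at, the lowest, differed by -3.53. It read 12.21 with scrambled, 10.35 with hairpin 1 and 6.825 with hairpin 2. Probe sets without a name could not be placed in any list, so they may still belong to listed genes. No probe set carried the single symbol of 4 members of the interferon list.

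Markers of other cell types were checked beside these results. Of 15 macrophage and leukocyte markers 8 were tested and 6 lay below the filter, among them Ptprc, Adgre1 and Itgam. Cd68, a lysosomal protein of macrophages, was the 1 called, at 5.67 with scrambled, 5.65 with hairpin 1 and 6.84 with hairpin 2 (1.19), and it passed the filter of 5.72 only through hairpin 2. The summed signal of the tested markers, as log2, lay between 10.50 and 10.67 on the hairpin 1 arrays and between 10.23 and 10.62 on those of hairpin 2. Its range with scrambled was 10.86 to 11.44. Of 9 endothelial markers 7 lay below the filter and 0 were called. Of 6 tested muscle markers Tnnc2 was higher by 0.50 and Acta1 and Myh11 were lower by -0.48 and -0.43, with Myod1 and Myog below the filter. Of 11 tested preadipocyte markers 3 were higher, among them Thy1 (9.95, 10.26 and 10.11 with hairpin 1, 11.05, 11.40 and 10.99 with hairpin 2), and 2 lower, Dlk1 and Itgb1. Their summed signal lay between 15.22 and 15.28 on the hairpin 1 arrays and between 15.26 and 15.30 on those of hairpin 2. In bulk samples fewer cells of a type and less RNA per cell cannot be told apart, and the part of such cells in the results above was not tested.

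Genes of higher signal were called more often, from 10.3% in the dimmest to 39.9% in the brightest of 4 equal groups of genes by signal. Of 3571 further probe sets of the called genes, 2910 had the same sign of difference (81.5%), and 63 were called in the opposite direction. Averaging all probe sets of a gene also moved the differences of Tpm1 to -0.50, Il6ra to -0.48, Ptn to -0.52, Angptl4 to -0.37, Rrm2 to -0.49, Thra to -0.22, Drosha to -0.20, Myh11 to -0.22 and Pnpla2 to -0.22. It moved Aqp7 to -0.78, Pkp2 to -0.88, Eif5a2 to -0.82, Fzd7 to 0.39, Itgb3 to 0.60 and Tnfaip2 to 0.23. Tnfaip3, Sdha and Itgb1, at 0.15, -0.14 and -0.07, were then not called. Differences in Ebf1 level between the hairpins and differences in hairpin sequence are confounded here and cannot be told apart.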

How the data were processed

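Per the labels' protocols, RNA from the adipocytes went through NuGEN amplification and biotin labelling before hybridization. The deposited values are log2 expression, 1 per probe set and array, made by the authors. The submitters' processing notes name RMA, a method that corrects background, equalizes arrays and summarizes probes. The RMA version is not given in the sources used here. RMA compresses differences at very low and very high signal. Array medians lay between 6.31 and 6.382, no arrays were identical, and 3 arrays per group limit the precision.

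Of 45101 probe sets, 64 controls, 932 with several gene symbols and 9160 with none were set aside for genes. Of the 34945 with 1 symbol, 34741 were found by Entrez identifier in a gene table of GRCm38.p6. For each gene the brightest probe set on average over all 9 arrays was kept, and genes with a mean of at least 5.72, the 30th percentile, were tested. All 9 arrays were fitted with limma 3.58.1 in R 4.3.3 (lmFit, eBayes with trend), with two-sided p-values adjusted by Benjamini-Hochberg over all genes tested and a threshold of 0.05. Fold changes are antilogs of log2 differences. No coordinates of probe sets are given.

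The members, 40 gene lists and naming rule were chosen with earlier results of these data known. The rule named the Ebf genes, the 15 highest and 15 lowest differences, 12 opposite-side genes of each direction and 4 members with the smallest p from each list. Further list members were named after their values were seen. Lists are described by counts and medians with no test of the list. On simulated arrays with 200 of 12735 genes changed, the fit of hairpin 2 against hairpin 1 recovered 89.6% of changes of 0.5 log2 units and 100% of those of 1 or 2, and 7.21% of its calls were unchanged genes. The simulated noise was independent, with the same spread in every group. In the data 3702 genes were called and the spread differed by group, so these shares need not hold for the real calls. The alternatives were 2 other filters, equal array medians, quantile normalization, averaged probe sets, the hairpin arrays alone, array weights, no variance trend, a replicate block and leaving out each array. Of the 184 genes named by rule, 134 had a RefSeq promoter.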

Additional observations from a re-analysis of the deposited data

Results flagged for a closer look

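In 10 genes the mean of 1 hairpin lay above scrambled and that of the other below, by at least 0.5 log2 units each. Both comparisons with scrambled and the difference between hairpins passed limma's test. Hairpin 2 was the higher for Mmp2 (2.44 log2 units, limma adjusted p = 9.59e-11), Gpt2 (2.36), Lrp11 (1.47), Ech1 (1.26), Purb (1.14) and Prmt6, an arginine methyltransferase gene (1.04, adjusted p = 0.00031). Hairpin 1 was the higher for Fst (-1.65), Dlk1 (-1.52), Smim13 (-1.28) and Fam91a1 (-1.28). With probe sets averaged 6 genes reached 0.5 on each side, and the range over all alternatives was 6 to 14.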

How the results depend on the processing

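Of the 172 named genes that were called, 154 kept their call and direction in every alternative that tested them, and 17 lost the call in at least 1. Epas1 turned to -0.19 (adjusted p = 0.0774) with its probe sets averaged. With array weights 5990 genes differed, 3812 were lower and 561 lay on opposite sides of scrambled, against 3702, 2219 and 197. Without the variance trend 9 respiratory chain genes were lower, against 18. The opposite-side count ranged from 102 to 364 with 1 array left out. Of the 197 genes, 54 kept their placing in every alternative that had scrambled arrays. Genes not tested under an alternative, as with the filter at the 50th percentile, were counted there as lost. The share of called genes that were higher was 40.1%, and 48.7% with equal array medians or 49% with quantile normalization. Correlations of same-numbered deviations ran from -0.293 to 0.25, with 3 of 9 over 0.1. Between the hairpins they were 0.23, 0.161 and -0.153 for repeats 1, 2 and 3. These values do not settle whether the repeat numbers pair the arrays. A replicate block gave 3761 calls, 97.3% of the original calls among them, and 203 opposite-side genes. The interferon list kept 35 to 37 members lower in every alternative.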
